A study of Mus musculus with 6 samples.

Results

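C-type lectins, Siglecs and Cd300 receptors are surface proteins with which macrophages read sugars, lipids and dying cells. The group was taken from the deposited gene table by symbol: every gene whose name begins with Clec and a digit, Siglec, Cd209 or Cd300, with Mgl2, Cd33 and Cd22 added. That gave 57 of 16906 listed genes, of which 42 had enough reads to be tested. RNA came from bone-marrow-derived macrophages of wild-type (WT) C57BL/6 mice, kept for 7 days in medium with 10% serum and given the macrophage growth factor M-CSF at 10 ng/ml. All cells then received epithelial exosomes, small secreted vesicles, at 100 µg/ml for 12 h. In the 3 libraries named stretched, the donor epithelial cells had been cyclically stretched for 6 h. In the 3 named static, they had not. No group without exosomes was analysed here, so every difference is relative to exosomes of unstretched cells, and the sources used here do not give the species or type of the donor cells. The labels do not state whether the replicates were independent animals or dishes. The p-values therefore reflect the spread of these libraries alone, and that spread may be technical.

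Many of these receptors signal through a few shared tyrosine motifs. Activating receptors either carry such a motif themselves, as Dectin-1 does, or pair with the adaptors Fcer1g or Tyrobp, which recruit the kinase Syk and, through Card9, Bcl10 and Malt1, reach NF-kB. Inhibitory receptors carry an immunoreceptor tyrosine-based inhibitory motif (ITIM) that recruits phosphatases such as Ptpn6. A further set, including the galactose lectins and the Cd209 family, mainly binds and takes up glycans or mediates adhesion. By these roles 15 members were classed as activating and 10 as inhibitory.

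Libraries held 16984561 to 17625991 estimated counts, and the group took 0.471% to 0.524% of static and 0.479% to 0.711% of stretched libraries. Macrophage markers summed to 7388 to 8367 CPM in static and 6700 to 7543 CPM in stretched libraries, with all 7 detected. CPM are counts scaled to a common library total. Single markers went both ways, with 1 higher and 0 lower at an adjusted p under 0.05 (edgeR), beside 11.9% of all tested genes. Adgre1 held 3371, 3149 and 2271 CPM in static and 2159, 1920 and 1551 CPM in stretched libraries. Cd68, Fcgr1 and Mertk were higher in all stretched than in all static libraries. Csf1r was highest in static 3, at 2844 CPM. The third static library stood apart. It had the highest value of 10 of 11 neutrophil markers, whose sum was 13400 CPM there, 3616 and 5284 CPM in the other static libraries and 4242 to 7792 CPM in stretched ones. Its 5 monocyte markers summed to 1745 CPM, against 440 and 549 CPM in the other static and 1012 to 1420 CPM in stretched libraries. None of the neutrophil or monocyte markers was at 0 throughout. Several members are also expressed by these cells, and the part of either cell type in the results was not tested. In bulk RNA, fewer cells of a type and less RNA per cell cannot be told apart.

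With exosomes of stretched cells, 5 members were higher and 5 lower at an adjusted p under 0.05 (edgeR quasi-likelihood test, Benjamini-Hochberg adjustment over all 12892 tested genes). Over all tested genes 6.55% were called higher and 5.38% lower, 11.9% in all. The 3 called higher in the activating class were the neighbouring genes Clec4e, Clec4d and Clec4n, and the inhibitory class had Cd300lf and Cd22. Those called lower were Clec5a, Cd300ld and Clec4b1 among activating and Clec4a2 and Siglece among inhibitory receptors. By unadjusted p under 0.05 there were 14 members, beside 31.7% of all genes, and in 13 of the 42 the groups did not overlap, beside 36.7% of all genes. Calls therefore went both ways in both classes. Among 15 tested activating receptors the median log2 fold change was -0.20, with 6 values above 0. Among 9 tested inhibitory receptors it was -0.29, with 3 above 0, and over all tested genes it was -0.002. The medians depended on single libraries. Without static 3 they were -0.043 for activating and 0.29 for inhibitory receptors, without stretched 2 -0.34 and -0.13, and without stretched 1, stretched 3 and static 2 in turn -0.052, -0.48 and -0.49 for inhibitory receptors.

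**Figure D1:**
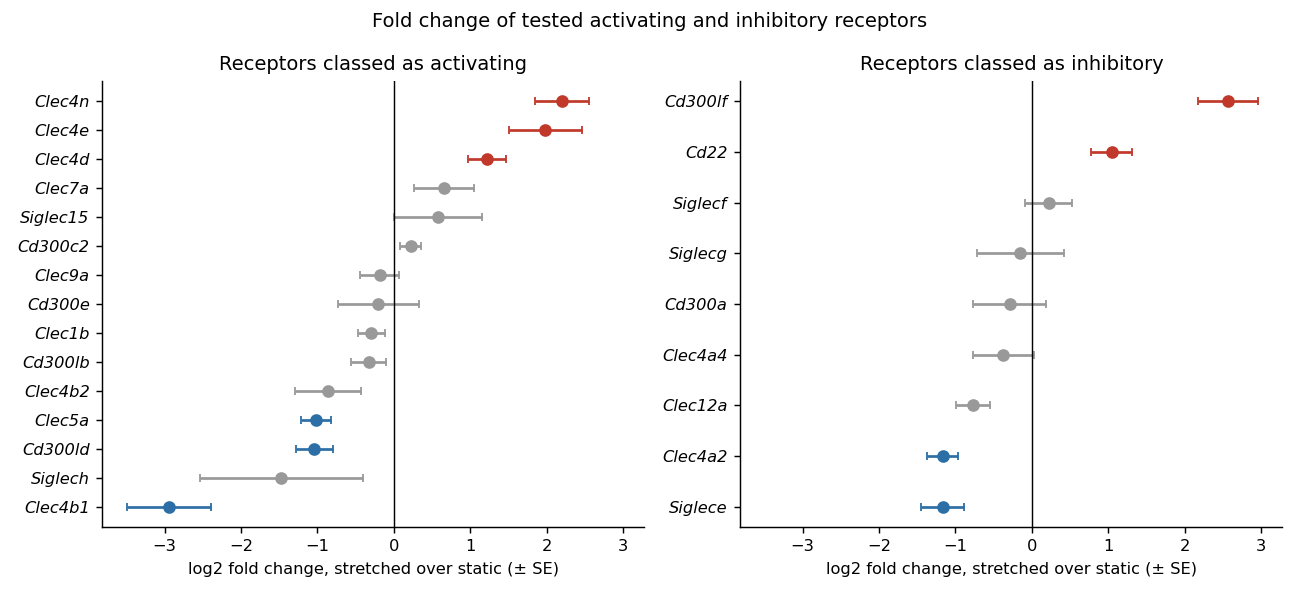
Log2 fold change (stretched over static, ± SE) of the 15 tested activating and 9 tested inhibitory receptors. Red and blue mark those called higher and lower by edgeR, grey those not called. Each class spans rises and falls, from Clec4b1 at -2.94 to Clec4n at 2.21 on the left and from Siglece at -1.17 to Cd300lf at 2.57 on the right.

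The count depended on the libraries used. With each left out in turn, 1 member was higher and 0 lower without stretched 1, 0 and 0 without stretched 2, 5 and 2 without stretched 3, 0 and 0 without static 1, 0 and 0 without static 2, and 9 and 9 without static 3. Of all genes, edgeR called 1.23%, 0.275%, 6.25%, 0.673%, 0.0% and 31.5% in these fits. Where no member was called, 6 were higher and 9 lower (without stretched 2), 6 and 11 (without static 1) and 6 and 9 (without static 2) by unadjusted p under 0.05, beside 22.1%, 22.0% and 21.8% of all genes. Without static 3 all 10 called members remained called, and Cd33, Clec12a, Clec14a, Clec2d, Clec2i, Clec4a3, Cd300ld3 and Cd300ld5 were added. All libraries in DESeq2 gave 6 members higher and 8 lower, with 20.8% of all genes called. It added Clec4a3, Clec12a, Cd300ld3 and Cd300ld5 to the 10. Scaling by library size alone gave 4 and 8 (14.4%), DESeq2 size factors in edgeR 4 and 5 (12.0%), and limma 3 and 5 (11.5%). With the replicate number as a block, 4 were higher and 4 lower (9.02% of all genes), of which 6 were among the 10 called without it. With both libraries numbered 3 left out, a choice made after the data were seen, 12 were higher and 9 lower (41.6%).

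Promoter sequences of 3 called genes of the chromosome 6 lectin cluster and of Cd300lf, the member with the largest rise, are shown because these genes carry the opposing changes. They are RefSeq promoter windows spanning an annotated start, 5′ to 3′ on the gene's strand, in GRCm38.p6. The intervals are chr6:123289822-123290121 (minus strand) for Clec4e, chr6:123261857-123262156 (plus) for Clec4d, chr6:123122440-123122739 (plus) for Clec4a2 and chr11:115133943-115134242 (minus) for Cd300lf. Capitals mark matches to the motifs named after them.
Clec4e: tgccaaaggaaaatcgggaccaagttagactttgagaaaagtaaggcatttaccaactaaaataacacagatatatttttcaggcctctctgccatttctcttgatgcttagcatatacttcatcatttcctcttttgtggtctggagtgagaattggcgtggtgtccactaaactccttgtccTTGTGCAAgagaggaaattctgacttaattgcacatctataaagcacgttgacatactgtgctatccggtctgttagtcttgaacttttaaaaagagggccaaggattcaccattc
Clec4d: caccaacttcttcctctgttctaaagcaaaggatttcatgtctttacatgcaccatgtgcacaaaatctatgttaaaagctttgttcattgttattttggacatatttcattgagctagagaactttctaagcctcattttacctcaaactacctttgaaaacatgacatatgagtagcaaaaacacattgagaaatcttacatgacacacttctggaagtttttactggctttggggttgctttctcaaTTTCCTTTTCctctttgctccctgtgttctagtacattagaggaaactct
Clec4a2: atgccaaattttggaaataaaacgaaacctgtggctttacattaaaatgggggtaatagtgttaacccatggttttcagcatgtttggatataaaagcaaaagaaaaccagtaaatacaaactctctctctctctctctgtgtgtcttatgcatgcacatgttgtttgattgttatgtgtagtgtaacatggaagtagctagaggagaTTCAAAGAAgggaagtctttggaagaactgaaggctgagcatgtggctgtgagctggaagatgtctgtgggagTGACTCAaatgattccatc
Cd300lf: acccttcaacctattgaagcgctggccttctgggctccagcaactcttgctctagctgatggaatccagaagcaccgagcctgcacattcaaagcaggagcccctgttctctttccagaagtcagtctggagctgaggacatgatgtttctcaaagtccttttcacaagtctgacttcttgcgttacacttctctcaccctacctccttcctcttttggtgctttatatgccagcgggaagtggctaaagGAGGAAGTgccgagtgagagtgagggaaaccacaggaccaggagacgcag

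The motifs were searched on both strands. The C/EBP letters TTGCNNAA were in the Clec4e window at positions -66 to -59 from the start and in 10.8% of 32851 windows of this length in the table. A match to the interferon-stimulated response element was in Clec4d (3.44% of all windows). The AP-1 letters TGANTCA (7.81%) and the STAT letters TTCNNNGAA (8.3%) were in Clec4a2, and the PU.1 letters GAGGAAGT (3.2%) were in Cd300lf. The NF-kB motif (5.56%) was in none of the 4. Clec4n, called higher, had no window and was not searched. In the 9 called members with a window, no motif was in more than 2 windows. No motif was shared by the 4 rising genes that had a window. A match is only a description of these letters.

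Clec4e encodes Mincle, an Fcer1g-coupled receptor for mycobacterial cord factor and for a nuclear protein released by dying cells. It lay at 478, 605 and 423 CPM in static 1 to 3 and at 2271, 2949 and 729 CPM in stretched 1 to 3. All stretched libraries were above all static ones, with stretched 3 close to static 2. The means were 1983 ± 1138 against 502 ± 93.6 CPM (SD, n = 3), a log2 difference of 1.98 ± 0.48 (SE, adjusted p = 0.0407, edgeR; 0.0569 in limma). Clec4d, which encodes the Mincle partner MCL, held 504, 525 and 454 CPM in static and 1045, 1558 and 849 CPM in stretched libraries. The groups did not overlap, and the rise was 1.22 ± 0.25 on the log2 scale (adjusted p = 0.0287, edgeR). Clec4n encodes Dectin-2, a receptor for fungal mannans that also uses Fcer1g. It went from 55.1, 31.7 and 78.8 CPM to 281, 305 and 179 CPM, a log2 difference of 2.21 ± 0.35 (adjusted p = 0.0188, edgeR). Of these 3 genes, each was lowest in stretched 3 among the stretched libraries.

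Clec7a encodes Dectin-1, the beta-glucan receptor, and did not pass. It held 149, 188 and 100 CPM in static and 227, 346 and 118 CPM in stretched libraries (log2 fold change 0.66 ± 0.39, adjusted p = 0.286, edgeR). Its groups overlapped, and in each group the third library was lowest. Within each number it was higher in the stretched library, though the labels state no pairing by number. With the replicate block the log2 fold change was 0.58 ± 0.17 (unadjusted p = 0.0163, adjusted p = 0.0868, edgeR). With both libraries numbered 3 left out, Clec7a was called higher (0.75 ± 0.22, adjusted p = 0.0356, edgeR), in a fit that called 41.6% of all genes. With single libraries left out its log2 fold change ran from 0.22 to 0.95. Clec5a encodes MDL-1, a Tyrobp-coupled receptor known for binding flaviviruses. It fell from 71.9, 83.8 and 111 CPM to 49.2, 44.9 and 37.0 CPM, without overlap. The change was -1.02 ± 0.20 on the log2 scale (adjusted p = 0.0246, edgeR; 0.0516 with the replicate block). Cd300ld, an Fcer1g-coupled Cd300 receptor, fell from 213, 259 and 148 CPM to 80.3, 104 and 117 CPM. Its log2 fold change was -1.04 ± 0.24 (adjusted p = 0.0362, edgeR; 0.0586 with the replicate block). Clec4b1 encodes the immunoactivating receptor DCAR and was a rare transcript, with 39, 48 and 49 estimated counts in static and 8, 6 and 1 in stretched libraries. The groups were far apart at these low counts, with a change of -2.94 ± 0.55 on the log2 scale (adjusted p = 0.0241, edgeR).

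The remaining activating receptors did not pass. Cd300c2, another Fcer1g-coupled member, held 119, 133 and 148 CPM in static and 149, 168 and 149 CPM in stretched libraries, a log2 difference of 0.22 ± 0.14 (adjusted p = 0.316, edgeR). Cd300lb and Cd300e, both coupled to Tyrobp, lay at -0.33 ± 0.23 and -0.20 ± 0.53 (adjusted p = 0.359 and 0.827, edgeR). Clec1b, the podoplanin receptor known from platelets, lay between 8.29 and 11.9 CPM in all libraries (-0.29 ± 0.18, adjusted p = 0.298, edgeR). Clec4b2, close in sequence to Clec4b1, was at 3.68, 4.05 and 10.5 CPM in static and 2.95 to 3.91 CPM in stretched libraries (adjusted p = 0.214, edgeR). No source states how reads matching several paralogs were assigned, which leaves the Clec4a, Clec4b and Cd300ld subfamilies uncertain. Clec9a, Siglech and Siglec15 stayed below 5 CPM in every library.

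Cd300lf, an ITIM receptor for lipids and phosphatidylserine and the entry receptor of murine norovirus, had the largest rise of all members. It held 16.8, 23.4 and 31.1 CPM in static and 71.1, 186 and 166 CPM in stretched libraries, and the groups did not overlap. The means were 23.8 ± 7.14 and 141 ± 61.4 CPM (SD, n = 3), a 5.93-fold ratio and a log2 difference of 2.57 ± 0.39 (adjusted p = 0.0172, edgeR). Cd22, a Siglec best known as an inhibitory coreceptor of B cells, rose from 13.9, 23.0 and 23.8 CPM to 51.6, 44.1 and 29.4 CPM (1.04 ± 0.27, adjusted p = 0.0491, edgeR). The call was lost when the replicate number was a block (adjusted p = 0.0901) or libraries were scaled by size alone (0.0699). The 5 B cell markers summed to 40.2 to 55.1 CPM in static and 32.9 to 46.6 CPM in stretched libraries, with 0 called higher and 1, Ms4a1, called lower. None of them was at 0 in all libraries.

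Clec4a2 encodes DCIR, an ITIM-bearing lectin. It fell from 366, 365 and 255 CPM to 136, 131 and 173 CPM, a log2 difference of -1.17 ± 0.20 (adjusted p = 0.0204, edgeR). Siglece, a sialic acid receptor with an ITIM that is the main inhibitory Siglec of mouse myeloid cells, fell from 206, 241 and 117 CPM to 102, 66.8 and 82.5 CPM. Its log2 fold change was -1.17 ± 0.28 (adjusted p = 0.0415, edgeR; 0.059 with the replicate block). Both groups of values were separate, and in static libraries the third was the lowest for both genes. Clec12a, an ITIM lectin that senses uric acid crystals and the most abundant inhibitory member per length, lay at 451, 518 and 302 CPM against 269, 261 and 218 CPM. Its groups also did not overlap, and it missed the threshold (-0.76 ± 0.22, adjusted p = 0.0643, edgeR). It passed without static 3 (-0.96, adjusted p = 0.00702, edgeR), where 31.5% of all genes were called. Without static 2 it was -0.60 (adjusted p = 0.21, edgeR).

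**Figure D2:**
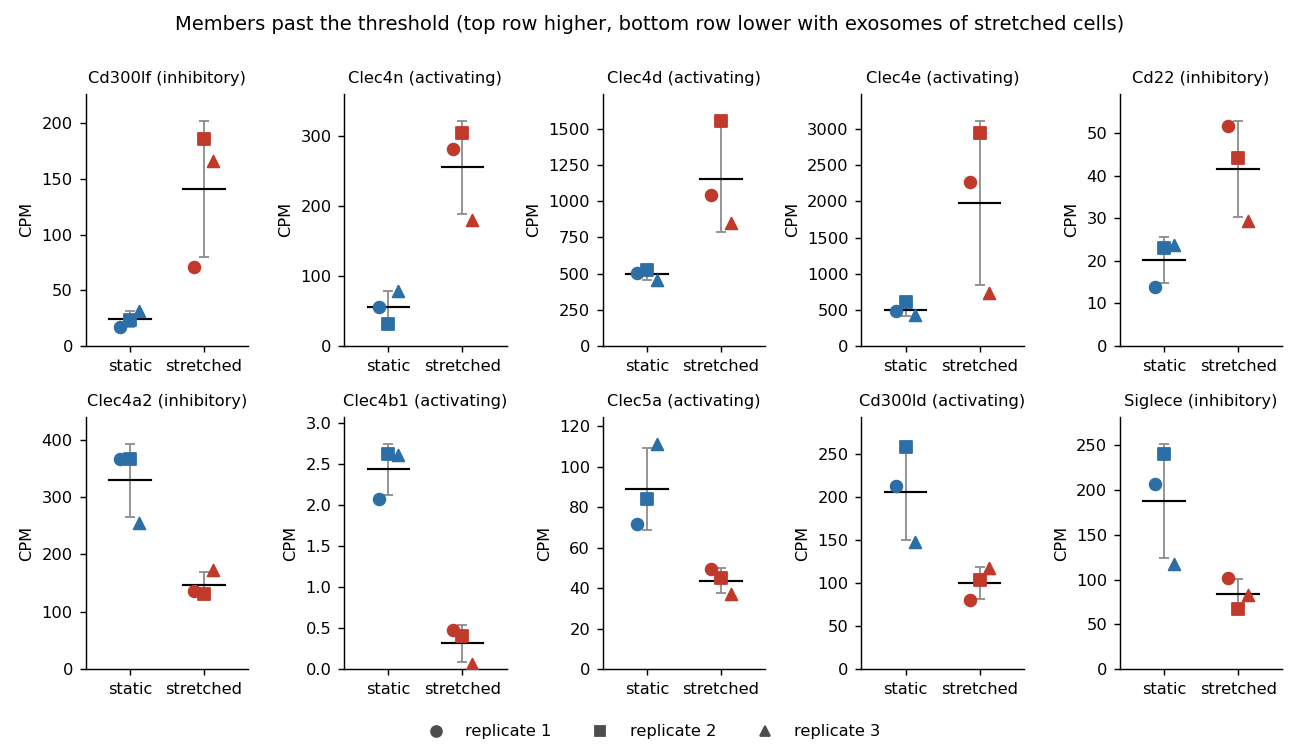
CPM in each library of the 10 called members, with each group's mean (line) and SD (bar, n = 3). The top row holds those called higher and the bottom row those called lower with exosomes of stretched cells. No panel shows an overlap between groups, and in Clec4e the stretched libraries run from 729 to 2949 CPM.

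Of the other inhibitory members, Cd300a, a receptor for phosphatidylserine, followed the replicate number more than the group. It held 30.7, 35.1 and 82.2 CPM in static and 25.8, 29.1 and 66.1 CPM in stretched libraries (adjusted p = 0.716, edgeR). Within each number it was lower in the stretched library, and with the replicate block it was -0.28 ± 0.12 (adjusted p = 0.188, edgeR). Siglecf, known from eosinophils, was at 3.79 to 6.65 CPM in static and 4.29 to 7.02 CPM in stretched libraries. Siglecg and Clec4a4 did not exceed 5.06 and 1.07 CPM. None of these 3 passed (adjusted p = 0.655, 0.887 and 0.562, edgeR). Clec12b was untested, with at most 2 counts in a library.

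Levels of different genes were compared per length, as FPKM, which divides reads by gene length and library total. That total lacks the adjustment used for CPM, so the units differ by more than gene length. Summed over the activating class, the level was 1140, 1241 and 1133 FPKM in static and 2393, 2823 and 1534 FPKM in stretched libraries. The inhibitory class summed to 835, 891 and 611 FPKM in static and 426, 398 and 493 FPKM in stretched libraries. Neither sum overlapped between groups. The activating sum was 1.37, 1.39 and 1.85 times the inhibitory one in static and 5.62, 7.09 and 3.11 times in stretched libraries. These are descriptions, since a sum over members was not tested.

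A few genes made up both sums. Clec4e and Clec4d together were 54.6% to 58.8% of the activating FPKM in static and 67.1% to 77.1% in stretched libraries. Without Clec4e, Clec4d and Clec4n, the other 12 activating members summed to 415, 481 and 432 FPKM in static and 368, 406 and 335 FPKM in stretched libraries. The 3 genes left out are those called higher, so this remainder was chosen on the outcome and nothing is read from its direction. In the inhibitory class Clec12a and Clec4a2 took 75.4% to 80.0% in static and 59.7% to 69.5% in stretched libraries, while the share of Cd300lf went from 1.42% to 3.78% in static to 10.1% to 24.8% in stretched libraries.

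**Figure D3:**
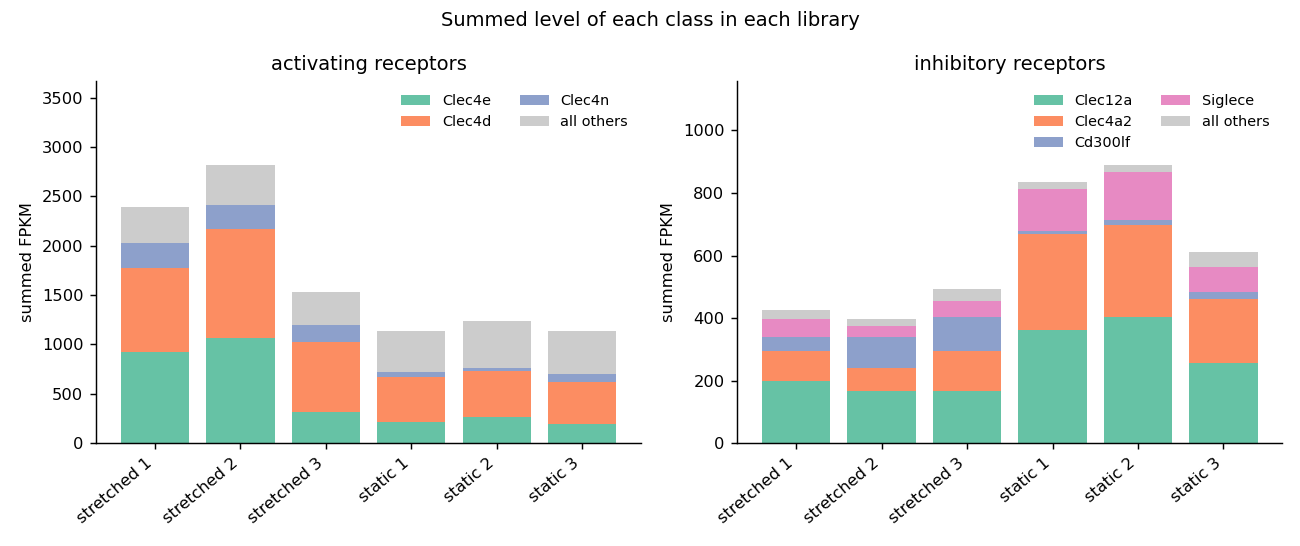
Summed FPKM of activating (left) and inhibitory (right) receptors in each library, with the leading genes coloured and all others in grey. Activating sums were 1133 to 1241 FPKM in static and 1534 to 2823 FPKM in stretched libraries, and inhibitory sums 611 to 891 and 398 to 493 FPKM.

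Members called in opposite directions lay in the same gene clusters, with uncalled members between them. Clec4 genes from Clec4a1 to Clec4e span 368 kb of chromosome 6 (122921848 to 123289871 in GRCm38.p6, RefSeq), and all 9 were tested. Of the 9, 3 were called higher and 2 lower, beside 6.55% and 5.38% of all tested genes. At the distal end Clec4n (123229843 to 123247024), Clec4d (123262107 to 123275268) and Clec4e (123281789 to 123289871) rose. The gene before them, Clec4b2, did not pass, and beyond it Clec4a2 (123122690 to 123143999) and Clec4b1 (123049962 to 123071555) fell. Clec4a1, the most abundant of the members with no assigned role, lay at 875, 901 and 734 CPM in static and 857, 937 and 891 CPM in stretched libraries (0.097 ± 0.17, adjusted p = 0.735, edgeR; -0.094 when libraries were scaled by size alone). Clec4a3 lay at 65.4, 89.6 and 99.4 CPM against 134, 177 and 119 CPM without overlap and missed the threshold (0.76 ± 0.21, adjusted p = 0.0578, edgeR). It passed without static 3 (0.88, adjusted p = 0.0243, edgeR), where 31.5% of all genes were called, and in DESeq2 (0.0152). Without stretched 2 it was 0.56 (adjusted p = 0.199, edgeR).

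On chromosome 11, 10 Cd300 genes span 246 kb. Of the 9 tested, 1 was called higher and 1 lower, beside 6.55% and 5.38% of all tested genes. Cd300lf (115116214 to 115135372) at one end was the gene called higher, and Cd300ld (114982443 to 114989886) the gene called lower. Between them Cd300ld3 held 56.5, 81.4 and 40.4 CPM in static and 30.5, 41.5 and 29.1 CPM in stretched libraries (-0.82 ± 0.27, adjusted p = 0.0855, edgeR). Cd300ld5 held 36.8, 54.1 and 30.2 CPM against 19.8, 31.0 and 16.4 CPM (-0.85 ± 0.30, adjusted p = 0.0963, edgeR). Within each replicate number both were lower in the stretched library, though the labels state no pairing by number. Both passed with the replicate block (adjusted p = 0.0433 and 0.0302, edgeR), where 9.02% of all genes were called. Cd300ld4 lay at 9.47 to 22.1 CPM in static and 8.004 to 17.3 CPM in stretched libraries and passed in neither fit. Cd300c had at most 2 counts in any library.

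**Figure D4:**
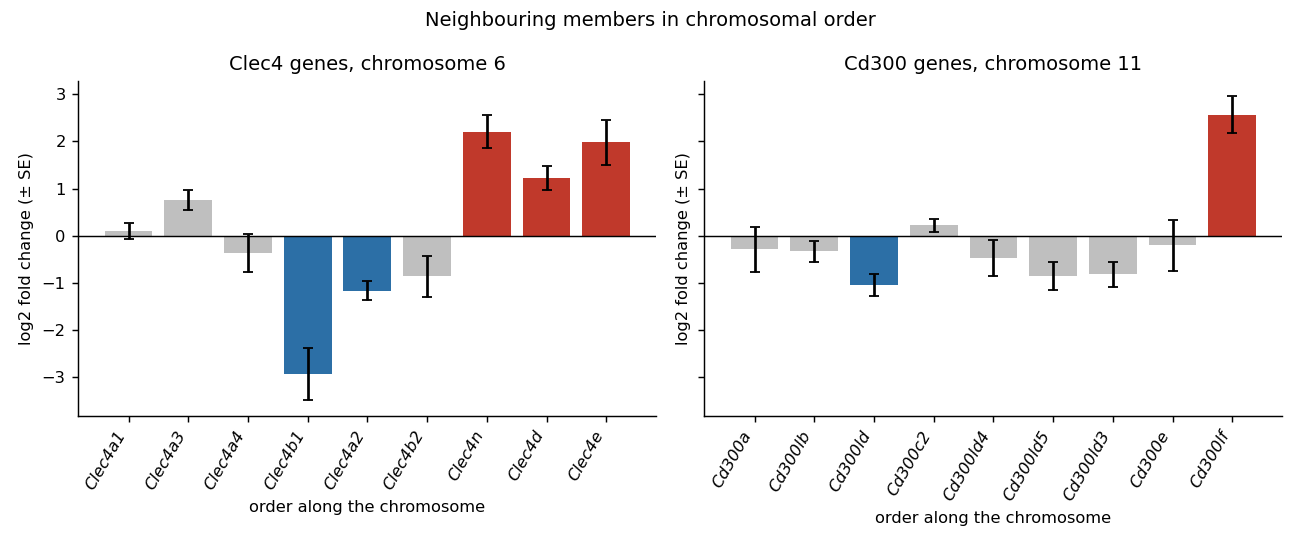
Log2 fold change (± SE) of tested Clec4 genes on chromosome 6 and Cd300 genes on chromosome 11, in chromosomal order and not to distance. Red and blue bars were called higher and lower by edgeR. Clec4n, Clec4d and Clec4e stand at 2.21, 1.22 and 1.98 beside falls of Clec4b1 and Clec4a2, and Cd300lf stands at 2.57 at the end of a row of smaller values.

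Tested as well were 6 endocytic and adhesion lectins, 3 ligands of natural killer receptors and 2 secreted or intracellular genes. None passed with all libraries and no block (0 called in edgeR and 0 at an unadjusted p under 0.05). DESeq2 also called 0 of them, but it gave no p-value for Clec10a and Mgl2. Without static 3, edgeR called Clec2d and Clec2i higher and Clec14a lower, in a fit that called 31.5% of all genes. Without both libraries numbered 3 it called Clec16a, Clec2e, Clec2i and Clec4f higher and Clec14a lower. That fit was chosen after the data were seen and called 41.6% of all genes. Under the replicate block Clec2e, Clec2i, Clec4f and Clec14a had an unadjusted p of 0.0198, 0.0226, 0.0236 and 0.0343, and none passed after adjustment. Siglec1, which encodes the adhesion receptor sialoadhesin, lay at 426, 506 and 558 CPM in static and 588, 567 and 426 CPM in stretched libraries (0.085 ± 0.19, adjusted p = 0.799, edgeR; -0.12 when scaled by size alone). Clec2d, a ligand of an inhibitory natural killer receptor, lay at 66.5, 70.7 and 104 CPM against 82.1, 103 and 92.4 CPM (0.20 ± 0.20, adjusted p = 0.527, edgeR; -0.0054 when scaled by size alone). Without static 3 it was 0.43 ± 0.13 (adjusted p = 0.0482, edgeR), and without static 1 it was 0.077 ± 0.22 (adjusted p = 0.866, edgeR). Cd33, a Siglec that was left unclassed, held 16.8, 22.9 and 50.3 CPM in static and 56.7, 62.7 and 37.9 CPM in stretched libraries (0.80 ± 0.40, adjusted p = 0.211, edgeR). It passed without static 3 (1.40, adjusted p = 0.0096, edgeR), and without static 1 it was 0.52 (adjusted p = 0.442, edgeR).

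Some members stood apart in both libraries numbered 3, and the labels do not state what the number stands for. Of the 42 tested, 7 were higher in both libraries numbered 3 than in the other 4, and 8 lower, where 9.16% and 8.34% of all tested genes were. The genes that follow were picked from these after their values were seen. Clec2i, a ligand-like lectin, held 2.56, 3.23 and 17.8 CPM in static and 9.87, 13.5 and 19.7 CPM in stretched libraries. Within each number it was higher in the stretched library. Its log2 fold change was 0.87 ± 0.70 with all libraries (adjusted p = 0.433, edgeR) and 1.33 ± 0.43 under the replicate block (adjusted p = 0.102, edgeR). Without static 3 it was 2.31 ± 0.34 (adjusted p = 0.00549, edgeR), and without static 1 it was 0.45 ± 0.63 (adjusted p = 0.722, edgeR). Clec4f, known from Kupffer cells, held 3.31, 6.18 and 0.0532 CPM in static and 8.61, 12.0 and 0 CPM in stretched libraries, where a count of 0 allows up to 3 counts. Cd209c lay between 6.40 and 7.28 CPM in the 4 libraries numbered 1 or 2 and at 1.17 and 0.921 CPM in static 3 and stretched 3. Cd300e showed the same order, with 49.1 to 82.1 CPM in those 4 and 19.5 and 21.4 CPM in the others. Endothelial markers, all 3 detected, summed to 86.1 to 125 CPM in libraries numbered 1 or 2 and to 33.1 and 34.7 CPM in those numbered 3, and their part in these values was not tested.

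Static 3 alone held most reads of the galactose lectins Clec10a (MGL1) and Mgl2, which are used as markers of alternatively activated macrophages and of some dendritic cells. Clec10a was at 1.71, 0.656 and 47.6 CPM in static and 1.87, 3.34 and 4.603 CPM in stretched libraries. Mgl2 was at 0.373, 0.93 and 15.9 CPM in static and 0.842, 1.29 and 0.403 CPM in stretched libraries. Neither passed (adjusted p = 0.276 and 0.189, edgeR), and the sign of each fitted change rests on that library: without static 3 the log2 fold changes were 1.46 and 0.35, against -2.35 and -2.77 with it. The 6 dendritic cell markers, none at 0 throughout, summed to 9.82, 14.1 and 25.2 CPM in static and 31.7, 48.0 and 27.5 CPM in stretched libraries. Of the 6, 3 were highest in static 3, and 1 was called higher and 0 lower with exosomes of stretched cells. Ccr7 alone held 3.95, 7.49 and 10.9 CPM in static and 22.6, 37.4 and 19.9 CPM in stretched libraries. The remaining markers did not share a single direction, and the part of all these markers was not tested.

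**Figure D5:**
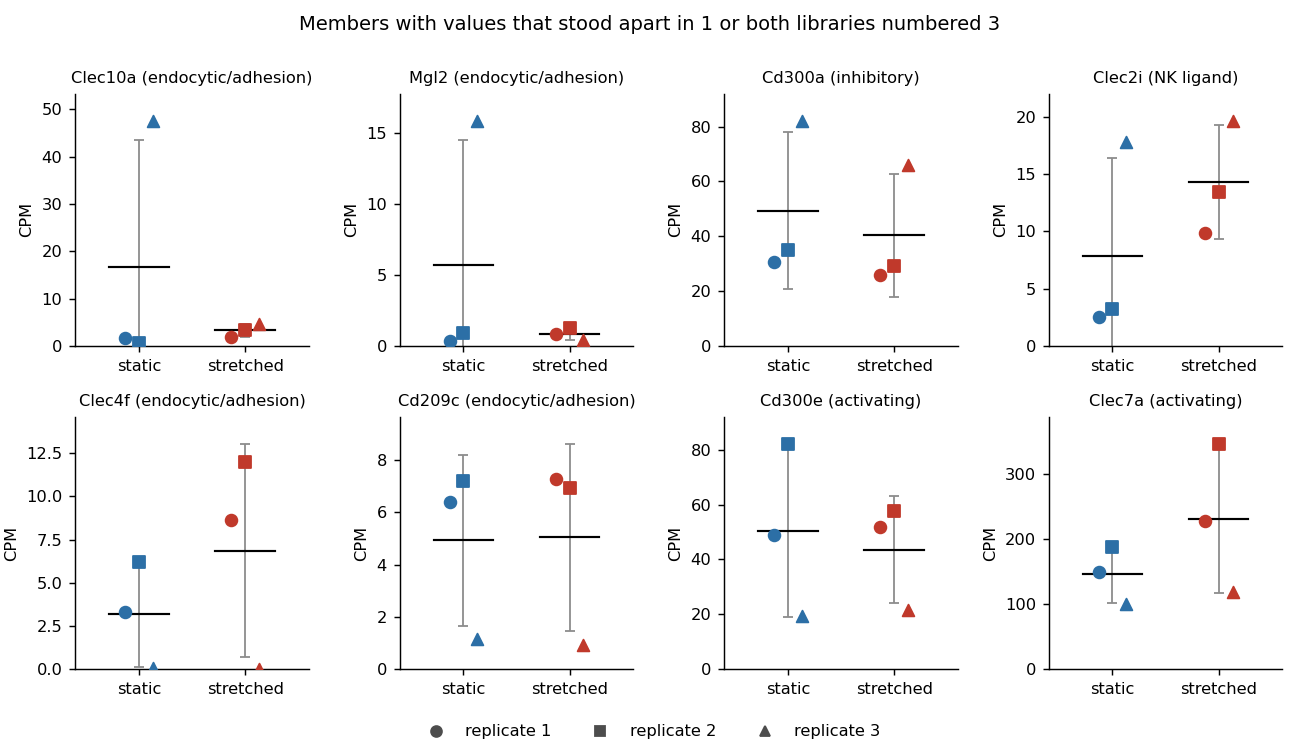
CPM of 8 members in each library, with group means (lines) and SD (bars, n = 3); triangles are libraries numbered 3. Cd300a and Clec2i are high and Clec4f, Cd209c, Cd300e and Clec7a low in both triangles, while Clec10a and Mgl2 are high in that of the static group.

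Another 15 members were untested. Of these, 14 had fewer than 10 counts in every library, and Cd300lg, an endothelial adhesion molecule, had at most 26. Clec2g reached 9 counts, Cd209f 5, Clec2f 4, and Clec4g and Cd209g 3. Cd209a, Clec12b, Clec3b and Cd300c reached 2. Clec2h, Clec2j, Clec2l, Clec3a and Cd209d had at most 1. Among tested members, Clec1a, Clec14a, Clec2e, Clec4a4 and Clec9a did not exceed 5 CPM in any library, Clec11a, which encodes a secreted growth factor, ran from 1.65 to 7.29 CPM, and Clec16a, an endosomal protein gene that shares only the prefix, from 40.2 to 62.6 CPM.

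The signalling partners were a list of 26 adaptors, kinases, phosphatases and other signalling genes, all tested. Of these, 2 were called higher and 2 lower, or 4 in all beside 11.9% of all tested genes. None of the 3 adaptors passed. Fcer1g lay at 1307 ± 121 CPM in static and 1757 ± 279 CPM in stretched libraries (SD, n = 3; 0.43 ± 0.20, adjusted p = 0.193, edgeR), Tyrobp at 472 ± 25.1 and 446 ± 44.3 CPM (adjusted p = 0.76), and Hcst at 4.72 and 5.17 CPM (adjusted p = 0.69; -0.055 when scaled by size alone). Src, a tyrosine kinase gene, rose from 32.7 to 77.2 CPM (1.24 ± 0.18, adjusted p = 0.0167, edgeR) and the adaptor gene Lat2 from 73.0 to 132 CPM (0.86 ± 0.18, adjusted p = 0.0314). Plcg2, a phospholipase gene downstream of Syk, fell from 175 to 92.5 CPM (-0.92 ± 0.16, adjusted p = 0.0215, edgeR). Ptpn6, which encodes the phosphatase SHP-1 that ITIMs recruit, fell from 568 ± 69.9 to 327 ± 41.99 CPM (-0.79 ± 0.18, adjusted p = 0.034, edgeR). Syk itself did not pass (0.44 ± 0.23, adjusted p = 0.23, edgeR), nor did Card9 (-0.51, adjusted p = 0.128). The other uncalled partners are named after their values were seen. The largest rise was Malt1, at 288 against 68.8 CPM (2.06 ± 0.61, adjusted p = 0.065, edgeR), and the largest fall Dok2, at 38.8 against 114 CPM (-1.56 ± 0.44, adjusted p = 0.0594), both with overlapping groups. Btk was nearest to the threshold (-0.57 ± 0.15, adjusted p = 0.0507, edgeR).

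The transcript table lists 149 transcripts of members, of which 87, from 40 genes, were tested. In edgeR 0 of them passed, and of 29604 transcripts in all 1 did (0.00338%). By unadjusted p under 0.05, 17 member transcripts were higher and 16 lower, beside 15.4% of all transcripts. The DESeq2 calls were 14 higher and 11 lower, with 9.25% of all transcripts called. The 10 called genes had 31 tested transcripts, and the fitted sign of 30 was that of the gene. The other was 1 of 5 tested Siglece transcripts, listed at 0 in static 1 and 2 and at 7.63% of the gene's counts in static 3 and 7.52% to 10.1% in stretched libraries (log2 fold change 1.28, adjusted p = 0.852, edgeR). In Clec4n the major transcript took 60.9% to 71.1% of counts in static and 66.9% to 73.1% in stretched libraries. The leading Clec4e transcript took 91.5% to 93.7% and 88.8% to 90.3%.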

How the data were processed

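Per the file headers, the deposited gene and transcript tables give a read count per feature and library. In each library 8.44% to 9.00% of gene values are not whole, so they are treated as estimated counts made by the authors, not normalised. A second deposited column has no named unit. Its values follow count over length and total, and they are treated here as the authors' FPKM. No source used here states the counting tool, the strand setting or the division of shared reads. The submitters' processing notes name the builds GRCm38 and mm10. Per the labels, 1.3 µg RNA entered each SMARTER library.

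Counts were rounded and filtered with edgeR's filterByExpr (minimum count 10). Stretched and static libraries were compared in edgeR 4.0.16 (R 4.3.3) by the quasi-likelihood test with TMM factors and a threshold of 0.05 on Benjamini-Hochberg adjusted p. CPM are counts scaled by TMM-adjusted totals, and the SE derives from the F statistic. DESeq2 1.42.0 and limma 3.58.1 (log2 CPM, prior count 2) were alternatives, as were other scalings, filters and leaving out libraries.

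The main test did not pair libraries, and the labels used here state no pairing. Replicate numbers from the titles served as a block in an alternative fit only. Deviations from group means correlated at 0.286, 0.183 and 0.182 for numbers 1 to 3 across genes. Among unmatched numbers, stretched 1 with static 2 gave 0.109, and the others ran from -0.24 to -0.0172. Replicates differed by far more than sampling noise.

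Members, classes and lists were chosen with earlier results of these data known. Every member past the threshold is given by library. Of those not past it, the 6 most abundant activating and inhibitory receptors and 4 others are given, and every untested member is named. Of the partners, those past it and the 3 adaptors are given. Others are named where a count was small or after their values were seen. Promoter windows (RefSeq, GRCm38.p6) matched 46 members. The limit given for a count of 0 covers counting error only.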

Additional observations from a re-analysis of the deposited data

How the results depend on the processing

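With each of 6 libraries left out, the number called ran from 0 to 4106 for all genes, 0 to 9 for members higher and 0 to 9 lower, 0 to 3 for activating receptors higher and 0 to 3 lower, 0 to 2 for inhibitory receptors higher and 0 to 3 lower, and 0 to 2 for partners higher and 0 to 8 lower. Medians ran from -0.34 to -0.043 (activating) and -0.49 to 0.29 (inhibitory). With both libraries numbered 3 left out, chosen after seeing the data, 5355 genes, 12 members higher and 9 lower, 4 activating receptors higher and 5 partners higher and 9 lower were called, and the activating median was -0.059. DESeq2 called 2682 genes, 8 members lower, 4 partners lower, and 14 member transcripts higher and 11 lower. Scaling by library size alone gave 8 members and 5 partners lower and an activating median of -0.41. Cd22 was lost there, with DESeq2 size factors, in limma and under the replicate block, which each left 1 inhibitory receptor higher, and limma, where Clec4e was lost too, called 3 members higher. The replicate block also left 1 activating and 1 inhibitory receptor lower.

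Signs turned for genes that were not called. By library size alone, Clec4a1 was -0.094, Siglec1 -0.12, Clec2d -0.0054 and Hcst -0.055. Siglecg was 0.079 in limma, 0.036 under the replicate block and 0.44 without both libraries numbered 3, where Clec4a1 was -0.0026. With single libraries left out, Cd300e ran from -0.59 to 0.34, Cd300a from -0.88 to 0.29, Siglecf from -0.0052 to 0.53, Siglecg from -0.49 to 0.75, Clec4a1 from 0.0086 to 0.15 and Siglec1 from -0.016 to 0.19. The cause of these changes was not tested. The 15 untested members had too few counts for the filter, and whether depth or a lack of expression lay behind this was not tested.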
